A study of Mus musculus with 36 samples.

Results

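The livers compared here are those of W/W mice, homozygous controls that carry the unmutated tryptophan at residue 441 of the liver X receptor alpha (LXRalpha, a sterol-sensing nuclear receptor), on a MASH-promoting diet or on chow. MASH is metabolic dysfunction-associated steatohepatitis, a fatty liver disease with inflammation and scarring. The members were chosen by genotype and treatment labels alone and number 8 of the 36 mice of the study, 4 on the MASH diet with vehicle and 4 on normal chow. All were males of 11 to 12 weeks. The MASH diet (Teklad TD.96121, rich in fat and cholesterol) was given for 4 weeks, with vehicle by oral gavage each day over the last 2 weeks. The chow mice were an independent cohort for which the labels give no gavage, so diet, gavage and cohort cannot be told apart. Below, MASH mice are those on the MASH diet with vehicle. The other mice were W/F (heterozygous) and F/F (homozygous) for a phenylalanine at residue 441, made by CRISPR in a number of founders the labels do not give, under the same 2 conditions, and mice of all 3 genotypes given the LXR agonist T0901317 on the MASH diet. PolyA RNA of whole liver was sequenced, and fewer cells of a type cannot be told apart from less RNA per cell.

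Liver cells hold their cholesterol within narrow limits through a pair of opposed transcription systems. When sterols are scarce, SCAP carries the precursor of SREBP-2 (gene Srebf2) out of the endoplasmic reticulum, and the released factor switches on the enzymes of cholesterol synthesis and genes of lipoprotein uptake. When sterols are plentiful, INSIG proteins hold SCAP back, and oxidised sterols activate LXRs, which raise genes of sterol export and, through SREBP-1c (gene Srebf1), of fatty acid synthesis. A diet rich in fat and cholesterol bears on both systems, on lipid droplets and on the fatty acid receptor PPAR-alpha.

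Expression was given as TPM, transcripts per 1000000 transcripts, on which each library sums to the same total. The 8 libraries held 18.0 to 29.0 M reads (M, 1000000), a depth worked out from the steps between low TPM values, and the MASH libraries lay within 21.3 to 24.5 M. Mice of 1 group correlated across genes with Pearson's r of 0.974 to 0.984, and mice of different groups with 0.958 to 0.979. A few libraries stood apart. In MASH replicate 1 the top 100 genes by level took up 59.1% of the TPM, against 54.3% to 55.3% in the other 3 MASH mice and 53.8% to 55.5% on chow. The same mouse held pancreatic acinar transcripts, with 27.0 TPM of Cela2a against 0.175 to 1.84 TPM in the other 7 mice, and their part in any result was not tested. Chow replicate 2 and MASH replicate 1 lay at the ends of the first principal component of these 8 mice, at -39.1 and 38.3, with the other chow mice at -23.9 to -17.3 and the other MASH mice at 17.4 to 26.4. Chow replicate 3 had the acute phase genes Saa1 at 2291 TPM and Saa2 at 1797 TPM, against at most 115 and 46.6 TPM in the other chow mice, and about 30% of the exon sequence of each (31.5% and 30.0%) also occurs in other genes. Counts are therefore also given without MASH replicate 1, without chow replicate 2 and without both.

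A gene was called where limma gave a Benjamini-Hochberg adjusted p under 0.05 over the 16638 genes that passed the expression filter. That filter took in the libraries of the whole study, and 2080 of these genes were under 1 TPM in all 8 mice compared. A change is hard to call at such levels, and these 2080 genes count in the shares of the 16638 genes given below. Between MASH diet and chow, 2141 genes were called (12.9%), of which 431 rose (2.59%) and 1710 fell (10.3%). Of the calls, 276 were at least 2-fold, 89 higher and 187 lower. At limma's unadjusted p under 0.05, 1073 of the 16638 genes were higher and 3228 lower, the background for unadjusted counts below. The balance of directions depended on scaling. After each library was rescaled by the median of its gene ratios, 2565 genes were called (15.4%), 1161 higher (6.98%) and 1404 lower (8.44%), and the median log2 fold change of all genes moved from -0.05 to 0.03. The count was 1091 without MASH replicate 1 (6.56%; 306 higher, 1.84%, and 785 lower, 4.72%) and 1266 without chow replicate 2 (7.61%; 220 higher, 1.32%, and 1046 lower, 6.29%). Without both it was 531 (3.19%; 145 higher, 0.871%, and 386 lower, 2.32%), of which 526 were among the 2141. Both mice lay at the ends of the first principal component, along which the 2 groups separated. Leaving them out therefore tends to bring the groups closer and also makes them smaller. How much of the drop this accounts for was not tested. The 8 libraries fitted alone gave 1015 calls of 12574 genes (8.07%; 1.73% higher and 6.34% lower), and voom on read counts recovered from the TPM gave 1974 of 16599 (11.9%; 3.64% higher and 8.25% lower). The counts of each gene list below stand against these shares of all genes in the same fit. All changes below are log2 fold changes of MASH diet over chow on log2(TPM + 1), ± the standard error of the fit, with limma's adjusted p.

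Sterol synthesis fell along nearly the whole pathway. Of 22 enzymes from acetyl-CoA to cholesterol, 21 fell and 0 rose, with a median of -2.15, against a median of -0.05 over all genes. The exception was Ggps1, which makes the geranylgeranyl side product rather than sterols, at -0.33 ± 0.14 (adjusted p 0.135). It was called at -0.44 without MASH replicate 4. The count was also 21 without MASH replicate 1, without chow replicate 2, without both and with counts recovered from the TPM. It was 20 after rescaling, where Ebp, a sterol isomerase, went from -0.40 to -0.27 (adjusted p 0.101). The summed level of the 22 genes ran from 2443 to 3772 TPM in chow mice and from 802 to 1080 TPM in MASH mice. In 21 of the 22 genes the 4 MASH mice lay below the 4 chow mice, where 12% of all genes did so and 3.74% lay wholly above.

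Sqle, squalene epoxidase (chromosome 15, 59315077 to 59331192, plus strand, GRCm38), had 53.8, 87.1, 72.5 and 63.5 TPM in chow replicates 1 to 4 and 1.90, 3.10, 2.09 and 2.48 TPM in MASH replicates 1 to 4. Each MASH value rested on 102 to 169 recovered reads. The fall was -4.36 ± 0.17 (adjusted p 4.84e-18), about 20.6-fold on this scale. Idi1, isopentenyl diphosphate isomerase, had 78.6, 124, 78.2 and 75.5 TPM on chow and 2.62, 4.30, 2.5 and 3.73 TPM on the MASH diet. It fell by 4.38 ± 0.23 (adjusted p 9.17e-15), with 17.7% of its exon sequence shared with other genes. No MASH mouse came near the lowest chow mouse in either gene, and chow replicate 2 was the highest of the 8 in both.

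Hmgcs1, a synthase early in the mevalonate route, was the most abundant by TPM of the enzymes up to Fdps. It stood at 483, 830, 315 and 517 TPM on chow and at 47.0, 73.1, 65.5 and 55.9 TPM on the MASH diet, a change of -3.06 ± 0.21 (adjusted p 7.93e-12). The kinase Mvk and the decarboxylase Mvd of the mevalonate steps fell, with changes of -2.16 and -2.95. Farnesyl diphosphate synthase Fdps fell by 3.03, with 26.2% shared sequence. Of the enzymes after squalene, the demethylase Cyp51 changed by -3.26, the C4-demethylating enzymes Msmo1 and Nsdhl by -3.16 and -3.03, the cyclase Lss by -2.14 and the reductase Dhcr7 by -2.08, all called as falls. Lbr, a lamin receptor with sterol reductase activity, fell by 0.85. A further 6 enzymes of the list (Acat2, Pmvk, Fdft1, Hsd17b7, Tm7sf2 and Sc5d) also fell, with changes between -1.24 (Acat2) and -2.15 (Pmvk). The changes ran from -0.40 to -4.38 within 1 pathway, with every gene but Ggps1 called.

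Promoter sequences are shown because these genes fell together and SREBP-2 is known to act at their promoters. RefSeq promoters (GRCm38.p6) were matched by symbol for 17 of the 22 synthesis genes. Fdps, Fdft1 and Sqle were among those with no entry. The 250 bases before the start of transcription were searched on both strands for TCACNCCAC and TCACCCCA, forms of the sterol regulatory element that overlap each other, for CCAAT, the NF-Y box, and for GGGCGG, the Sp1 box. CCAAT was found in 16 of the 17 genes, against 37.5% of 27025 genes with an entry, and GGGCGG in 15 of 17, against 35.4%. The 27025 genes were not matched to the 17 by expression in liver or by gene type, so these shares do not show whether the motifs are particular to sterol genes. TCACNCCAC was in 1 of 17 (1.22% of all genes) and TCACCCCA in 1 of 17 (1.54%). Capitals mark these motifs, on either strand, in the 4 stretches below, each read 5′ to 3′ on the plus strand and ending before the annotated start of its gene.
Hmgcs1, chr13:119690101-119690350: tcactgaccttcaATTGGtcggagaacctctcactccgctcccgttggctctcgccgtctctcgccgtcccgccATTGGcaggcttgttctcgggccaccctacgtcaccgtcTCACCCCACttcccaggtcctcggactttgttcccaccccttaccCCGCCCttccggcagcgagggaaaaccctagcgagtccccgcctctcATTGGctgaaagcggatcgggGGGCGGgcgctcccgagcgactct
Mvk, chr5:114444019-114444268: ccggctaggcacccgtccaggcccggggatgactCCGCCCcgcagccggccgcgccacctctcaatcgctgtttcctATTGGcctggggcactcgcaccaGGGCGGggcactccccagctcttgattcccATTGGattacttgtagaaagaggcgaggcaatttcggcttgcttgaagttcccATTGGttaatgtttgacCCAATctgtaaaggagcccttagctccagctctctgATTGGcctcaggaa
Nsdhl, chrX:72918271-72918520: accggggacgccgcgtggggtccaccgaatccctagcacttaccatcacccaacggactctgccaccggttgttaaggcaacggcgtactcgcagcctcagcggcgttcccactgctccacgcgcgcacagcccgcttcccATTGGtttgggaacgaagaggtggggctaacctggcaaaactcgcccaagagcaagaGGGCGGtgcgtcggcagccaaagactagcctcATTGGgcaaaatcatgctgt
Srebf2, chr15:82147019-82147180: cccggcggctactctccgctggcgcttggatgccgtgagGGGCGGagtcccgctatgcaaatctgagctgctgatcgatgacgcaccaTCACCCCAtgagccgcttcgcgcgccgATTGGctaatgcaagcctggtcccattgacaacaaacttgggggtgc
The promoter of Hmgcs1 holds the sterol element from 137 to 129 bases before the start, with CCAAT on the minus strand at 3 places and GGGCGG at 2. In Mvk and Nsdhl the sterol element letters do not occur, and CCAAT occurs 5 and 2 times. Srebf2, the gene of SREBP-2 itself, holds TCACCCCA from 162 to 155 bases before its RefSeq start. A match is a description of letters, and these data do not measure binding.

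**Figure D1:**
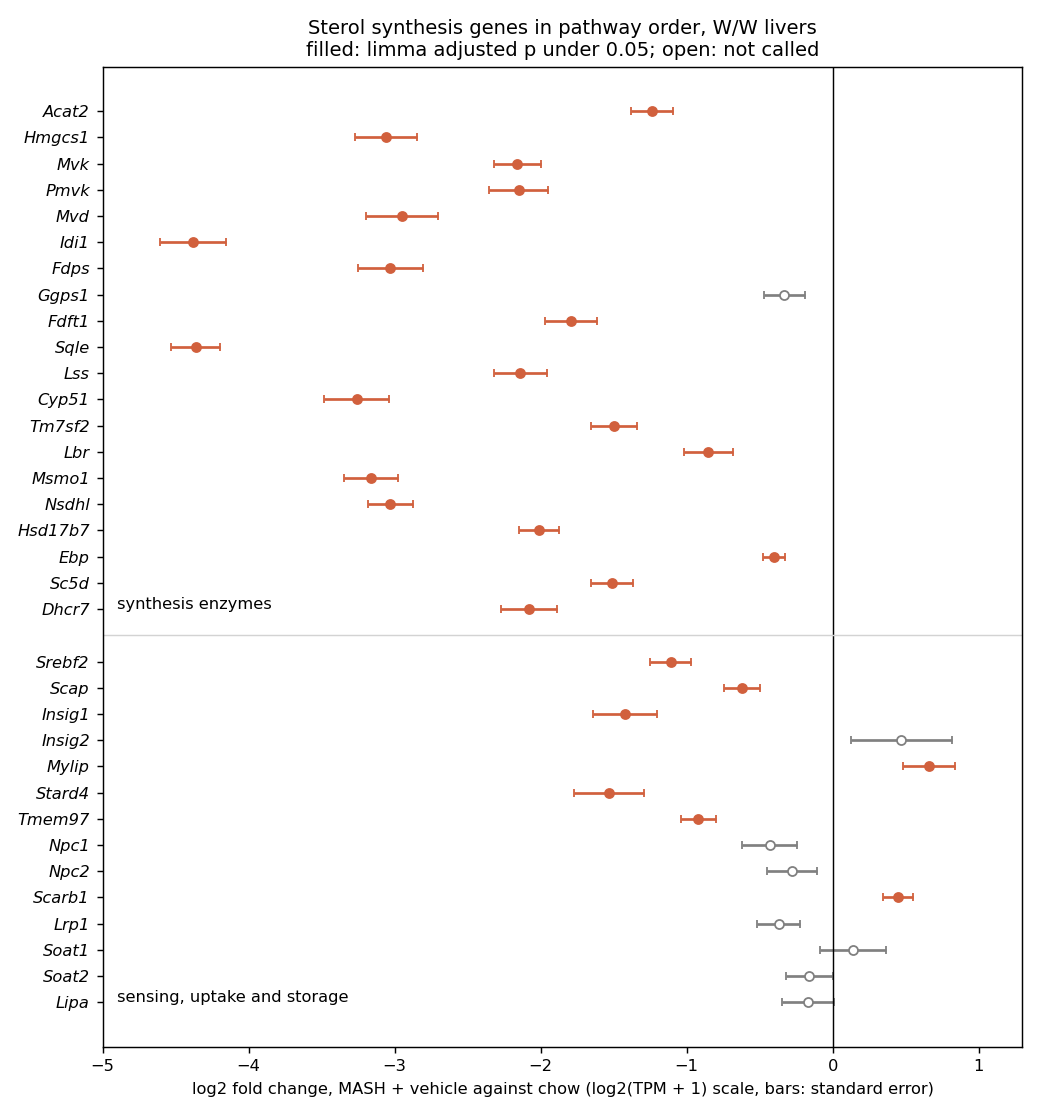
Log2 fold change of MASH diet over chow in W/W livers (x axis, log2(TPM + 1) scale; bars, standard error) for 20 synthesis enzymes in pathway order and 14 tested genes of sterol sensing, uptake and storage below the grey line. Filled points are called and open points are not; every synthesis gene plotted lies left of 0, from -0.33 to -4.38, and the lower group falls on either side of 0.

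Genes that sense and take up sterols moved less uniformly. Of 16 tested genes, 6 fell and 2 rose. Insig1, an SREBP target that retains SCAP, fell by 1.42 ± 0.22, from 310 to 388 TPM in chow mice to 106 to 200 TPM in MASH mice. Srebf2 itself fell by 1.11 ± 0.14 and Stard4, a sterol carrier, fell by 1.53 ± 0.24. Scap fell by 0.62 ± 0.13, and without chow replicate 2 and MASH replicate 1 together it was -0.46 (adjusted p 0.0628). The 2 genes that rose were Mylip, an LXR target that encodes a ubiquitin ligase, by 0.66 ± 0.18 (adjusted p 0.0119; 0.51 with adjusted p 0.0647 without chow replicate 3), and Scarb1, the HDL receptor, by 0.45 ± 0.10. Insig2, a second INSIG, was at 0.47 ± 0.35 and not called (adjusted p 0.432).

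**Figure D2:**
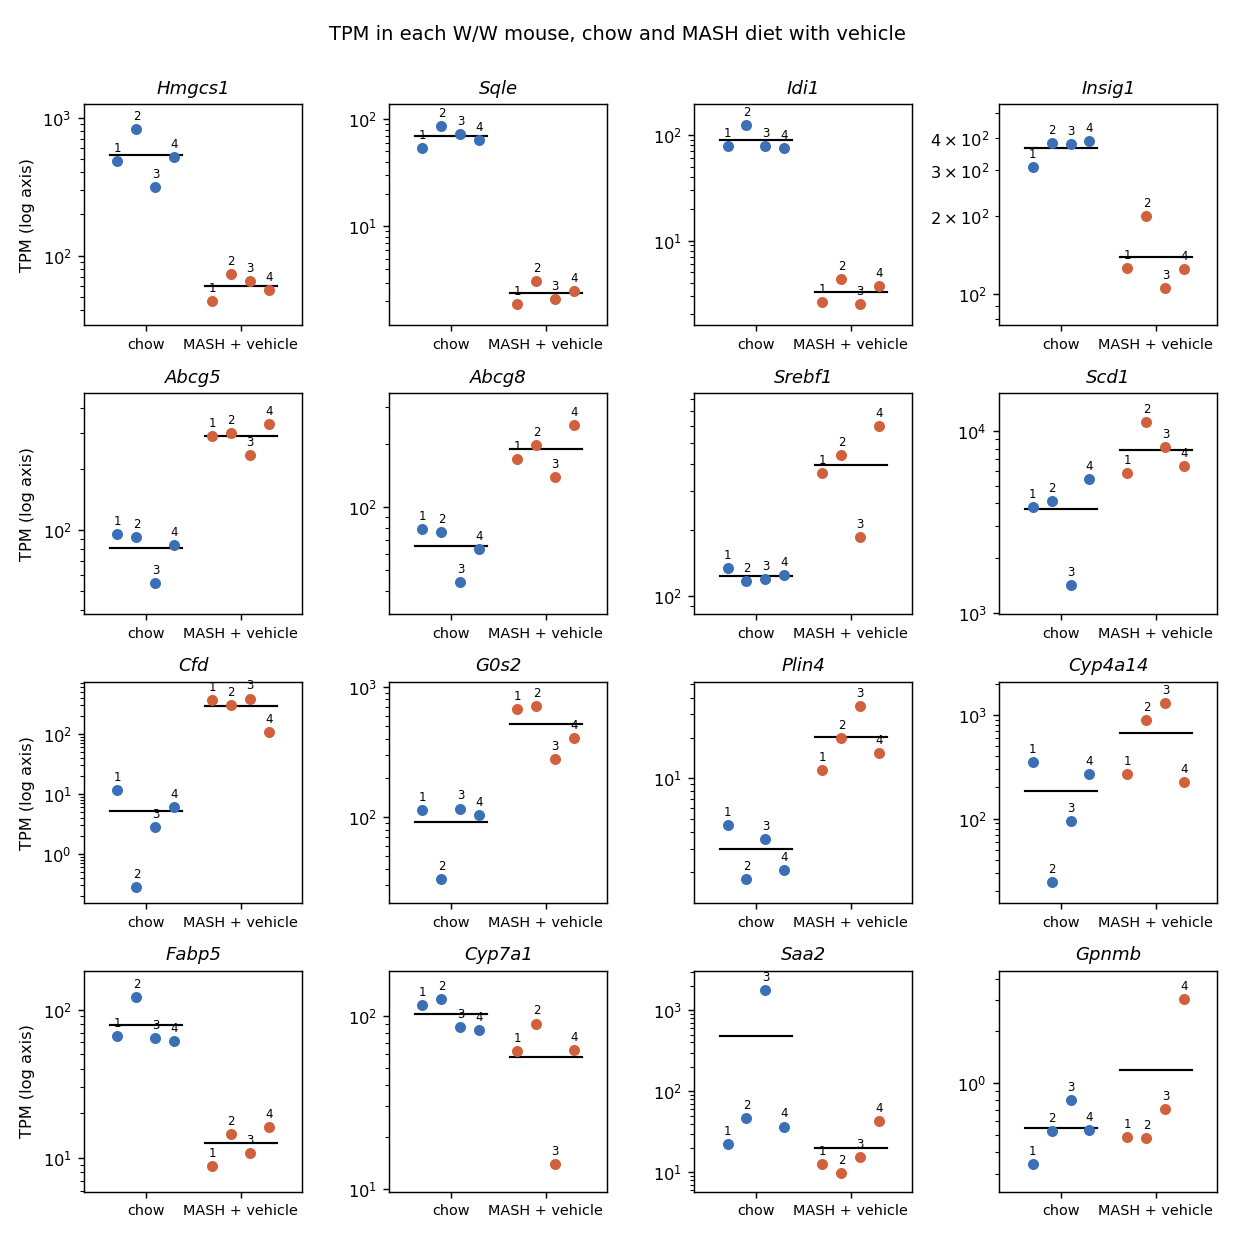
TPM (y axis, logarithmic) of 16 genes in each W/W mouse, with replicate numbers beside the points and a bar at the arithmetic mean of each group of 4. Sqle, Idi1, Hmgcs1, Insig1 and Fabp5 are lower and Abcg5, Abcg8, Srebf1, Scd1, Cfd, G0s2 and Plin4 higher in all 4 MASH mice; Cyp4a14, Cyp7a1, Saa2 and Gpnmb overlap.

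Some targets of LXR rose. Of 14 receptors and targets, 3 rose and 1 fell, where 2.59% of all genes rose and 10.3% fell. The 1 fall is near that background, and 0 fell without MASH replicate 1 or with the 8 libraries fitted alone. Abcg5 and Abcg8, which pair to export sterols into bile, rose most. Abcg5 (chromosome 17, 84658234 to 84683011, minus strand) had 95.7, 92.1, 54.5 and 83.8 TPM on chow and 292, 302, 233 and 332 TPM on the MASH diet, a rise of 1.84 ± 0.24 (adjusted p 3.69e-06). Abcg8 had 78.6, 76.3, 43.9 and 63.4 TPM against 170, 198, 139 and 246 TPM, a rise of 1.51 ± 0.27 (adjusted p 0.000465). Chow replicate 3 was the lowest and MASH replicate 4 the highest mouse for both genes. Abcg1, an exporter to HDL that is abundant in macrophages, rose by 1.06 ± 0.24 from 2.10 to 3.63 TPM to 5.25 to 8.07 TPM. Its relative Abca1 was not called, at 27.3 to 45.1 TPM on chow and 26.3 to 35.3 TPM on the MASH diet (-0.28 ± 0.15, adjusted p 0.257). Lpcat3, a phospholipid-remodelling LXR target, was at 0.32 ± 0.14 (adjusted p 0.139) and was called at 0.45 after rescaling. Pltp, the phospholipid transfer protein, fell by 1.2 ± 0.37 (adjusted p 0.0286) with overlapping mice, at 33.9 and 36 TPM in chow replicates 3 and 2, 101 and 120 TPM in replicates 4 and 1, and 16.9 to 39.0 TPM on the MASH diet. That call was lost without chow replicate 1 (-0.89), chow replicate 4 (-0.97), MASH replicate 1 (-0.99) or MASH replicate 4 (-1.05). The receptor genes themselves were not called. Nr1h3, the usual symbol of LXRalpha, was at 79.1 to 107 TPM on chow and 83.1 to 106 TPM on the MASH diet (0.11 ± 0.10, adjusted p 0.591). Nr1h2, with which the study's description pairs LXRalpha, was at 22.8 to 25.9 and 22.2 to 23.6 TPM (-0.08 ± 0.10, adjusted p 0.693; 0.04 after rescaling).

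Srebf1, which lies downstream of LXR and insulin, rose from 134, 116, 119 and 125 TPM on chow to 366, 441, 186 and 599 TPM on the MASH diet (1.56 ± 0.22, adjusted p 1.42e-05). The chow mice were alike, and the MASH mice spread widely but all lay above them, with replicate 3 the lowest. Of 25 genes of fatty acid and triglyceride synthesis, 4 rose and 7 fell as deposited, but 6 rose and 5 fell after rescaling and 6 and 6 with voom, so neither direction led in all scalings. The stearoyl-CoA desaturase Scd1 rose with Srebf1 by 1.2 ± 0.30 (adjusted p 0.00681), from 3818, 4146, 1423 and 5447 TPM to 5889, 11170, 8114 and 6408 TPM, and it was not called when the 8 libraries were fitted alone (adjusted p 0.0847). Acss2 and Acly, which supply acetyl-CoA, fell. Acss2, an acetyl-CoA synthetase, fell by 1.87 ± 0.23 (adjusted p 1.98e-06), from 90.0, 85.0, 45.8 and 107 TPM to 18.7, 24.5, 19 and 21.2 TPM. Acly, ATP citrate lyase, fell by 1.08 ± 0.26 (adjusted p 0.00608; -0.87 with adjusted p 0.0976 without chow replicate 2 and MASH replicate 1). Gpam, which starts glycerolipid synthesis, fell by 1.84 ± 0.31 (adjusted p 0.000182). Mogat1, a monoacylglycerol acyltransferase, rose by 1.08 ± 0.27 at low levels (0.338 to 1.84 TPM on chow, 2.27 to 5.24 TPM on the MASH diet), and its adjusted p was 0.117 without chow replicate 2 and MASH replicate 1. Fatty acid synthase Fasn showed no common direction, at 150, 166, 82.6 and 185 TPM on chow and 150, 193, 31.2 and 302 TPM on the MASH diet (-0.12 ± 0.41, adjusted p 0.921; 0.56 without MASH replicate 3). Thrsp, a lipogenic cofactor, was as variable, at 183 to 663 TPM and 106 to 1464 TPM (0.93 ± 0.67, adjusted p 0.418). MASH replicate 3 was the lowest MASH mouse for Srebf1, Fasn, Thrsp and Acly alike. In this list the calls were 3 higher and 4 lower without MASH replicate 1, the same numbers without chow replicate 2, and 2 higher and 3 lower without both.

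Lipid droplet genes rose more often than they fell. Of 20 genes of droplets and fatty acid binding, 8 rose and 1 fell, with a median of 0.37. G0s2, an inhibitor of the lipase ATGL, rose by 2.54 ± 0.43 (adjusted p 0.000189), from 114, 33.1, 116 and 104 TPM to 673, 714, 278 and 407 TPM. Plin4, a droplet coat protein, rose by 2.37 ± 0.31 (adjusted p 6.6e-06), from 4.49, 1.78, 3.53 and 2.08 TPM to 11.6, 19.97, 34.5 and 15.4 TPM. The droplet fusion gene Cidec rose by 1.67 ± 0.30, the fatty acid binding protein Fabp2 by 1.73 ± 0.25 and the droplet coat gene Plin5 by 1.16 ± 0.19. Cd36, a fatty acid receptor, rose by 1.26 ± 0.31, with MASH replicate 4 (34.1 TPM) within the chow range of 16.1 to 38.6 TPM, and its adjusted p was 0.119 without chow replicate 2 and MASH replicate 1. Plin2, the abundant coat protein of liver droplets, was not called, at 213 to 292 TPM and 223 to 350 TPM (0.17 ± 0.18, adjusted p 0.622). Fabp5 fell by 2.52 ± 0.36 (adjusted p 2.68e-05), from 66.0, 122, 64.7 and 61.1 TPM to 8.79, 14.6, 10.8 and 16.1 TPM. Fabp5 is also known from lipid-associated macrophages, and 5.48% of its sequence is shared.

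Genes of PPAR-alpha and fatty acid oxidation also rose more often than they fell. Of 29, 13 rose and 1 fell as deposited, and 16 rose and 0 fell after rescaling. The number that rose was 12 without MASH replicate 1, 9 without chow replicate 2 and 4 without both, against 0.871% of all genes higher in that last fit. Acot1, an acyl-CoA thioesterase, rose by 1.67 ± 0.36 (adjusted p 0.00239), from 46.8, 16.5, 25.6 and 40.7 TPM to 84.2, 134, 152 and 53.9 TPM, with 19.2% shared sequence. Vnn1, a pantetheinase, rose by 1.55 ± 0.35 and the peroxisomal enzyme Ehhadh by 0.79 ± 0.20. Fgf21, a fasting hormone, rose by 1.5 ± 0.39, from 0.442 to 1.39 TPM to 1.45 to 7.13 TPM, and Acaa1b, a peroxisomal thiolase with 30.5% shared sequence, by 1.40 ± 0.33. Without chow replicate 2 and MASH replicate 1 their values were 1.51 and 1.06, with adjusted p 0.0675 and 0.106. Chow replicate 2 was the lowest of the 8 mice for Acot1, Acaa1b and Vnn1. The fatty acid hydroxylase Cyp4a10 rose by 2.01 ± 0.67 (adjusted p 0.0434), a call lost on leaving out chow replicate 2 or 3 (1.53 and 1.97) or MASH replicate 1, 2 or 3 (2.07, 1.97 and 1.77). Its neighbour Cyp4a14 ranged from 24.3 to 351 TPM on chow and 228 to 1311 TPM on the MASH diet and was not called (2.07 ± 0.89, adjusted p 0.131). Ppara itself was at -0.77 ± 0.30 (adjusted p 0.0877) and was called at -0.99 without MASH replicate 2.

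**Figure D3:**
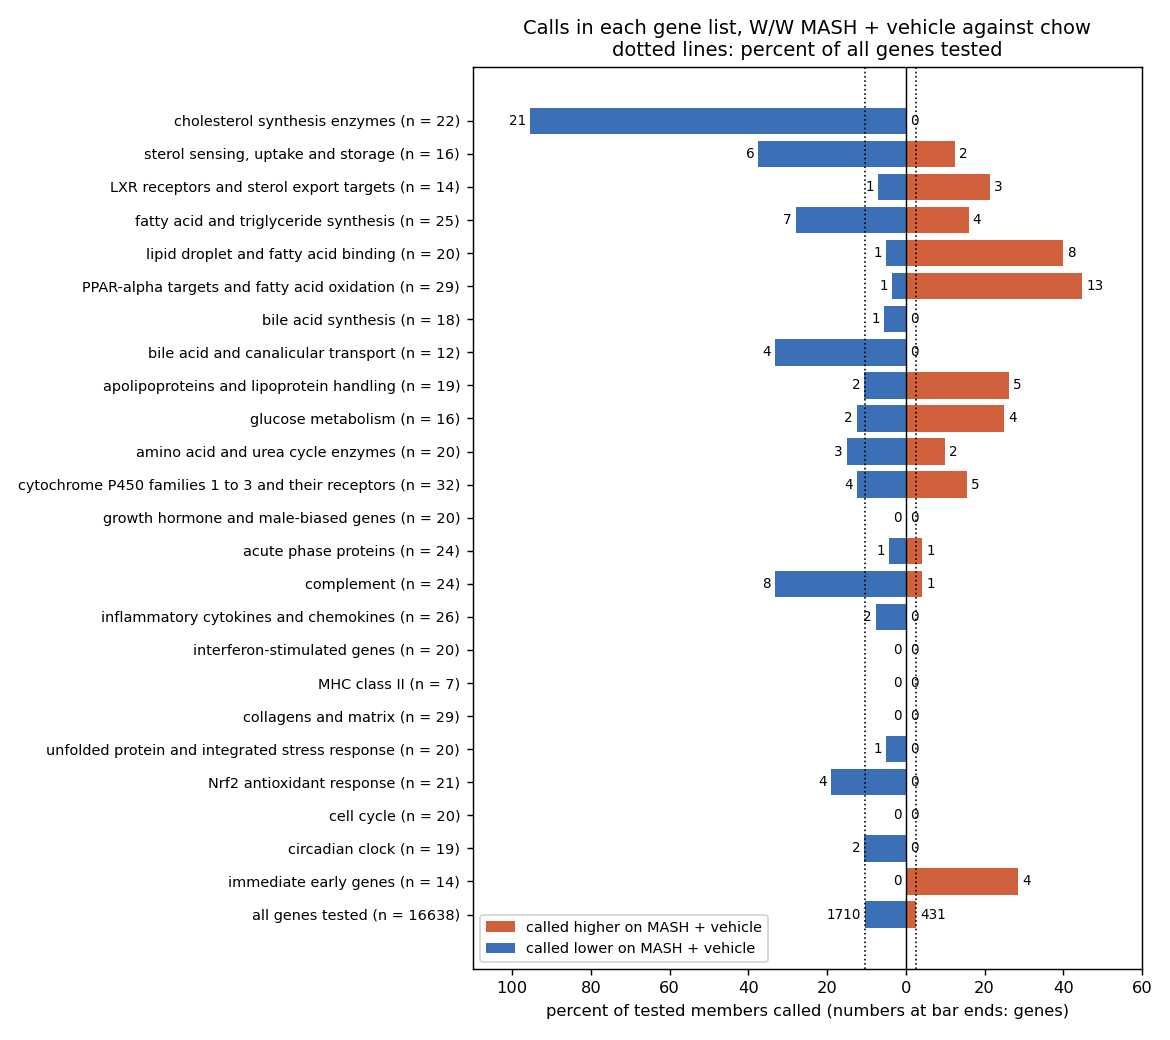
Percent of the tested members of 24 gene lists called higher (right) or lower (left) on the MASH diet in W/W livers, with the number of genes at each bar end and all 16638 genes in the last row. Dotted lines mark the 2.59% higher and 10.3% lower among all genes; cholesterol synthesis reaches 21 of 22 to the left, and PPAR-alpha targets and droplet genes reach furthest to the right.

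Few genes of bile acid synthesis were called. Of 18 genes, 0 rose and 1 fell (2 rose and 1 fell after rescaling), with 1 higher and 2 lower at an unadjusted p under 0.05 and 1 higher and 1 lower with voom on recovered counts. Cyp7a1, the rate-limiting enzyme, had 116, 124, 86.1 and 82.2 TPM on chow and 62.5, 90.1, 14.0 and 63.7 TPM on the MASH diet (-1.06 ± 0.45, adjusted p 0.124). Cyp8b1, which sets the share of cholic acid, overlapped fully (-0.21 ± 0.31, adjusted p 0.757). Cyp7b1 of the alternative pathway split the chow mice, at 160 and 183 TPM in replicates 1 and 4 and 610 and 722 TPM in replicates 2 and 3, with MASH mice at 152 to 252 TPM (-0.83 ± 0.54, adjusted p 0.353). The repressor Nr0b2 (SHP) was higher in all 4 MASH mice, at 67.6 to 111 TPM against 32.5 to 45.6 TPM. It missed the threshold at 0.94 ± 0.37 (adjusted p 0.0929), and was called at 1.08 after rescaling and at 1.05 with voom. Nr5a2, an activator of Cyp7a1, fell by 0.52 ± 0.13 (-0.36, adjusted p 0.0720, without MASH replicate 1). Of 12 bile acid and canalicular transporters, 4 fell and 0 rose. The uptake carrier Slco1a4 fell by 1.46 ± 0.27 (adjusted p 0.000496), from 16.3 to 37.3 TPM to 3.73 to 12.4 TPM, and the canalicular pump Abcc2 fell by 0.66 ± 0.17, with adjusted p 0.102 without chow replicate 2 and MASH replicate 1. Without MASH replicate 1 the falls of this list numbered 2, and 1 without chow replicate 2 as well. The bile salt pump Abcb11 fell by 0.80 ± 0.23, which was -0.58 without MASH replicate 1 (adjusted p 0.117), -0.76 without chow replicate 2 (adjusted p 0.0546) and -0.72 without chow replicate 4 (adjusted p 0.0525).

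Of 19 apolipoprotein and lipoprotein genes, 5 rose and 2 fell (3 and 1 without chow replicate 2, 2 and 1 without MASH replicate 1 as well). Of all genes, 2.59% rose and 10.3% fell (1.32% and 6.29% without chow replicate 2, 0.871% and 2.32% without both mice). The falls in the apolipoprotein list, and in the glucose and P450 lists below, were near that 10.3%. Apoa4, an apolipoprotein of triglyceride-rich particles, rose by 1.95 ± 0.32 (adjusted p 0.000129), from 133, 52.0, 81.9 and 95.0 TPM to 258, 469, 483 and 215 TPM. Apoe, the ligand for remnant uptake and among the most abundant liver transcripts, rose by 0.69 ± 0.11 (adjusted p 8.16e-05), from 20120, 16690, 17410 and 20760 TPM to 29450, 30520, 32960 and 27420 TPM. Apom, which carries sphingosine phosphate on HDL, fell by 0.78 ± 0.13 (adjusted p 0.000183). Angptl8, a feeding-induced lipase regulator, rose by 1.72 ± 0.56 with overlapping mice, and that call was lost without chow replicate 2 or 4 (1.39 and 1.43) or MASH replicates 2, 3 or 4 (1.5, 1.82 and 1.42). Among 16 genes of glucose metabolism 4 rose and 2 fell (2 and 0 without chow replicate 2 and MASH replicate 1). The fructose kinase Khk rose by 0.73 ± 0.18, with adjusted p 0.0818 without these 2 mice. Pck1, the gluconeogenic carboxykinase, fell by 0.85 ± 0.25, a call lost after rescaling (-0.72) and without chow replicate 2 or 3 (-0.67 and -0.80) or MASH replicate 4 (-0.63). Of 20 amino acid and urea cycle genes 2 rose and 3 fell (1 and 1 without these 2 mice). Tat, tyrosine aminotransferase, fell by 1.37 ± 0.26 (adjusted p 0.000714), from 1061, 2757, 2044 and 1309 TPM to a narrow 610 to 682 TPM, and glutamine synthetase Glul rose by 0.51 ± 0.12, with 11.9% shared sequence. Of 32 cytochrome P450 genes and receptors 5 rose and 4 fell (3 and 2 without them). Por, the reductase that feeds electrons to them, rose by 1.16 ± 0.22 (adjusted p 0.000726), from 144 to 238 TPM to 295 to 552 TPM. Cyp2b10, a target of the receptor CAR, was listed at 0 in chow replicates 2 and 3, at 1.34 and 4.38 TPM in replicates 1 and 4, and at 4.19 to 12.1 TPM on the MASH diet (2.33 ± 0.56, adjusted p 0.00574; 1.94 with adjusted p 0.103 without chow replicate 2 and MASH replicate 1). Cyp2c55 fell by 1.35 ± 0.32.

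Cfd, adipsin or complement factor D, had the largest change of the genes named by size. It lies on chromosome 10 (79890853 to 79892655, plus strand) and had 11.8, 0.286, 2.82 and 6.15 TPM on chow and 369, 303, 390 and 107 TPM on the MASH diet, a rise of 5.83 ± 0.57 (adjusted p 2.04e-08). The lowest chow mouse rested on 2 recovered reads and the highest on 126, against 996 to 3556 reads in MASH mice. Adipocytes are the main known source of adipsin. Of 8 adipocyte markers, Cfd was the 1 called gene among 3 that passed the expression filter, and Fabp4, another of these, was at 0.25 ± 0.24 (adjusted p 0.581), although its 4 MASH mice (3.41 to 3.93 TPM) lay above its 4 chow mice (2.63 to 3.38 TPM). The adipocyte genes Adipoq, Plin1 and Retn were at most 0.131 TPM in any of the 8 mice, and Lep was listed at 0 in all. Of the other 23 complement genes 8 were called lower, where 10.3% of all genes were. Hc (complement C5) fell by 1.21 ± 0.20 (adjusted p 0.000146), from 308 to 660 TPM to 168 to 227 TPM. Masp1, a protease of the lectin pathway, fell by 1.2 ± 0.30, and was at -0.86 without MASH replicate 1 (adjusted p 0.0689). The complement falls numbered 4 after rescaling (8.44% of all genes), 2 without MASH replicate 1 (4.72%), 3 without chow replicate 2 (6.29%) and 1 without both (2.32%), a count near the background in the fits without MASH replicate 1, while the rise of Cfd was called in each of these fits.

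Few genes of inflammation and matrix were called. Of 29 collagen and matrix genes 0 were called, with 0 higher and 2 lower at an unadjusted p under 0.05, 0 with voom and 1 higher after rescaling. Col1a1, the main fibrillar collagen, had 3.47, 3.76, 2.04 and 3.17 TPM on chow and 2.41, 2.76, 1.96 and 8.44 TPM on the MASH diet (0.10 ± 0.39, adjusted p 0.929; -0.27 without MASH replicate 4). Of 26 cytokines and chemokines 0 rose and 2 fell (1 without MASH replicate 1). These counts are near the background, as 10.3% of all genes fell (4.72% without MASH replicate 1). The larger of the 2 falls was that of Ccl9, a myeloid chemokine, at -0.99 ± 0.15 (adjusted p 8.61e-05). Ccl2, the monocyte attractant, was at 0.978 to 1.93 TPM on chow and 0.453 to 1.99 TPM on the MASH diet (-0.18 ± 0.56, adjusted p 0.903). Of 20 interferon-stimulated genes 0 were called, with 0 higher and 4 lower at an unadjusted p under 0.05 and 0 with voom. Of all 16638 genes, 3228 were lower at an unadjusted p under 0.05, a share near that of this list. In 4 of the 20 all MASH mice lay below all chow mice, where 12% of all genes did so. When the 8 libraries were fitted alone 2 were called lower (6.34% of all genes). Of 20 cell cycle genes 0 were called, with 1 lower at an unadjusted p under 0.05 and 0 with voom. Some members were under 1 TPM in all 8 mice, where a change is hard to call. These were 6 of the 29 matrix genes, 4 of the 27 listed cytokines and chemokines and 4 of the 20 cell cycle genes. Of 7 MHC class II genes 0 were called and 0 had an unadjusted p under 0.05, with 0 called by voom, although all 7 estimates were positive (median 0.80). Acute phase genes gave 1 rise and 1 fall of 24. At limma's unadjusted p under 0.05, 1 was higher and 8 lower, where 3228 of all 16638 genes were lower. Of the 24 estimates 20 were negative, with a median of -0.61. The called rise was that of Orm3, an orosomucoid, by 2.86 ± 0.49 (adjusted p 0.000268), from 2.33, 1.71, 6.91 and 3.27 TPM to 44.8, 19.5, 23.5 and 35.3 TPM. Apcs, serum amyloid P, fell by 1.46 ± 0.40, and was -1.28 without chow replicate 2 and -1.27 without MASH replicate 1, with adjusted p 0.0615 and 0.0690. Saa1 was not called (-1.91 ± 1.23, adjusted p 0.354), with the chow mean set by replicate 3. Of 21 Nrf2 antioxidant genes 4 fell and 0 rose, where 10.3% of all genes fell. The falls numbered 2 after rescaling (8.44% of all genes), 2 with voom (8.25%) and 1 without MASH replicate 1 (4.72%), near the background in these 3 fits. Among the 4 was Gstm3, at -1.83 ± 0.52 with 28.8% shared sequence, a call lost without MASH replicate 1 or 3 (-1.62 and -1.71). Of 20 genes of the unfolded protein and integrated stress response 1 fell, the chaperone Hsp90b1 by -0.64 ± 0.16, a call lost without chow replicate 2 and MASH replicate 1 together (-0.40, adjusted p 0.196) and with the 8 libraries fitted alone (adjusted p 0.0630). After rescaling 1 gene of this list also rose. Of 19 clock genes 2 fell, near the 10.3% of all genes, and 0 did after rescaling, without MASH replicate 1 or without chow replicate 2. Of 20 growth hormone and male-biased genes 0 were called, with 3 lower at an unadjusted p under 0.05, 0 with voom and 1 lower with the 8 libraries fitted alone. Immediate early genes rose in 4 of 14. Dusp1, a MAP kinase phosphatase, rose from 33.2, 17.7, 14.0 and 13.3 TPM to 87.2, 63.7, 54.9 and 120 TPM (2.04 ± 0.41, adjusted p 0.00116), and Jun by 1.36 ± 0.27. Time of day and time to tissue collection were not given in the sources used here.

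Cell type markers gave few calls. Albumin (Alb), the defining hepatocyte product, was abundant as the label liver implies, at 40010 to 69070 TPM on chow and 39370 to 58300 TPM on the MASH diet (-0.20 ± 0.19, adjusted p 0.566). Of 9 hepatocyte markers 0 rose and 2 fell, and both calls were lost after rescaling and without MASH replicate 1 or chow replicate 2. Of 10 Kupffer cell markers 0 were called and 0 had an unadjusted p under 0.05, with 0 by voom and 2 higher with the 8 libraries fitted alone. Their summed level was 165 to 219 TPM on chow and 226 to 287 TPM on the MASH diet. Clec4f, the defining gene of resident Kupffer cells, was 42.5, 46.6, 49.2 and 58.1 TPM against 68.0, 73.4, 70.3 and 77.6 TPM, without overlap, and was called only when the 8 libraries were fitted alone (0.56, adjusted p 0.0193; 0.196 in the fit of all libraries). Of 12 markers of lipid-associated and recruited macrophages 0 rose and 1 fell, Fabp5, and 3 of the 12 were under 1 TPM in all 8 mice. Trem2, their defining receptor, was at 0.107 to 0.208 TPM on chow and 0.307 to 0.814 TPM on the MASH diet, on 4 to 12 and 15 to 41 reads (0.31 ± 0.27, adjusted p 0.520). All 4 MASH mice thus lay above all 4 chow mice for Trem2. Its estimate is flattened by the 1 TPM added to values that were all below 1 TPM. Gpnmb was at 0.342 to 0.798 TPM on chow and at 0.491, 0.482, 0.711 and 3.05 TPM on the MASH diet, and Lgals3 at 2.72 to 3.23 and 3.65 to 9.78 TPM, neither called (adjusted p 0.753 and 0.201). MASH replicate 4 was the highest mouse for Trem2, Gpnmb, Lgals3, Col1a1 and the immunoglobulin gene Igkc (63.1 TPM against 12.0 to 20.3 TPM in the other MASH mice). Igkc rose by 1.77 ± 0.51 (adjusted p 0.0190), and that call was lost without MASH replicate 4 (1.3), chow replicate 1 (1.61) or chow replicate 3 (1.44), with voom and with the 8 libraries fitted alone. As deposited, 1 marker rose in each of 3 other lists, namely Krt23 of cholangiocytes by 1.78 ± 0.27 (adjusted p 4.17e-05), Gata4 of sinusoidal endothelium by 0.80 ± 0.16 (adjusted p 0.00116) and Ecm1 of stellate cells by 0.67 ± 0.18 (0.45, adjusted p 0.0720, without chow replicate 3). Of the 10 stellate cell markers, 3 were higher after rescaling, 2 with voom and 0 without chow replicate 2 and MASH replicate 1 or with the 8 libraries fitted alone. Krt23 went from 1.2, 3.03, 0.612 and 0.605 TPM to 8.31, 4.53, 6.37 and 7.53 TPM, while none of the other 7 cholangiocyte markers was called. T and NK cell and neutrophil markers, 8 of each, gave 0 calls (1 higher and 0, respectively, at an unadjusted p under 0.05, and 0 with voom). Of the 8 neutrophil markers 5 were under 1 TPM in all 8 mice, as were 3 of the 10 listed T and NK markers. At such levels the added 1 TPM flattens any change. Haemoglobin and other red cell markers summed to 503 to 576 TPM on chow and 345 to 369 TPM on the MASH diet, with 0 of 5 called, 3 lower at an unadjusted p under 0.05 and 0 with voom. In 4 of the 5 all MASH mice lay below all chow mice (12% of all genes), and 4 were called lower with the 8 libraries fitted alone (6.34% of all genes). The 1 tested marker of skeletal muscle was not called, and its list summed to at most 3.57 TPM.

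By size, the 12 largest rises and 12 largest falls among called genes with a mean of at least 5 TPM and no overlap between mice fell largely into the groups already given. Of the 12 falls, 8 were cholesterol synthesis genes. Of the 12 rises, Cfd, Orm3, G0s2, Plin4, Dusp1, Cyp4a10 and Apoa4 have been described. Adam11, a catalytically inactive ADAM family protein, was a further one, at 6.78, 2.81, 8.31 and 11.4 TPM on chow and 38.1, 34.7, 33.3 and 54.2 TPM on the MASH diet (2.40 ± 0.24, adjusted p 4.63e-08). The remaining 8 are non-coding genes, and 7 of them lie within or across a coding gene, so that reads may be shared with the partner. Of these 7, 3 (Gm22935, Mir6993 and Gm24196) lie on the strand of the partner, where a strand setting does not separate the reads, and 4 lie opposite it, where it does. The setting is not given in the sources used here. Gm22935, a small nuclear RNA gene of 104 bases within Fdps, changed by -4.0 and Fdps by -3.03. Mir6993, 65 bases within Fads1, changed by -3.53 and Fads1 by -0.50. Gm15998, opposite Efna3, changed by -2.81 and Efna3 by -1.96. Gm24282, 66 bases opposite Elf2, was listed at 0 in all chow mice and rested on 3 to 6 reads on the MASH diet, and Elf2 was at -0.28 (adjusted p 0.144). Gm45244, opposite Acsl1, changed by 2.5, and Acsl1 was at 0.21 (adjusted p 0.621). Gm28513, opposite Rgs16, changed by 2.29, and Rgs16 was at 2.19 (adjusted p 0.102). Gm24196, a miRNA gene with 70.5% shared sequence, changed by -2.70 (adjusted p 0.0482), which was -1.81 without chow replicate 3 and was not called on leaving out chow replicate 2 or 3 or any 1 of the 4 MASH mice. Its partner Adam22 averaged only 0.0472 TPM on chow and 0.0542 TPM on the MASH diet. The sharing of reads was not tested for any of these genes. The long non-coding RNA 1700080G11Rik, which overlaps no annotated gene, rose by 2.03 ± 0.32 (adjusted p 8.97e-05), from 7.86 to 14.5 TPM to 34.1 to 60.6 TPM.

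Whether these responses were those of W/W livers in particular was tested as the difference of the diet response from that of W/F and of F/F mice, each against its own 4 chow and 4 MASH mice. Both differences share the W/W mice. The response differed for 9086 genes in W/F (54.6%; 49.5% higher and 5.13% lower) and 7654 in F/F (46%; 41.5% higher and 4.54% lower). The median gene differed by 0.49 and 0.41 as deposited and by 0.01 and 0.04 after rescaling, where 6671 (40.1%) and 4458 (26.8%) genes differed. Genes are therefore named where the difference was called in both scalings, unless said otherwise.

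Cholesterol synthesis fell in all 3 genotypes. Of its 22 genes, 20 fell in W/F and 20 in F/F by their own diet contrasts, where 8.53% and 9.27% of all genes fell. The response was lower in W/F than in W/W for 15 of 22 genes (19 after rescaling) and higher for 2 (0 after rescaling). Of all genes, 5.13% had a lower and 49.5% a higher response in W/F (19.1% and 21% after rescaling). In F/F the response was lower for 5 of the 22 and higher for 4 (7 and 3 after rescaling). Of all genes, 4.54% had a lower and 41.5% a higher response in F/F (12.3% and 14.5% after rescaling). Idi1 changed by -6.61 in W/F and -5.63 in F/F against -4.38 in W/W, with differences of -2.22 ± 0.32 (adjusted p 1.74e-06) and -1.25 ± 0.32 (adjusted p 0.00253). Sqle fell further in W/F (-5.15, difference -0.79 ± 0.24, adjusted p 0.00612) and less in F/F (-2.68, difference 1.68 ± 0.24, adjusted p 3.47e-06). F/F mice kept 9.35 ± 2.45 TPM of Sqle on the MASH diet, against 2.39 ± 0.53 TPM in W/W (SD, n = 4 each). For Hmgcs1 the W/F and W/W falls differed by -1.39 ± 0.30 (adjusted p 0.000282), whereas the F/F difference was 0.13 ± 0.30 (adjusted p 0.745).

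The responses of the sterol exporters also differed. Abcg5 rose in W/W alone of the 3 genotypes. As deposited, it was at -0.24 in W/F (69.1 ± 8.90 TPM on the MASH diet; adjusted p 0.390) and fell by 1.12 in F/F (37.2 ± 3.80 TPM; SD, n = 4 each). The differences from W/W were -2.08 ± 0.33 (adjusted p 6.86e-06) and -2.96 ± 0.33 (adjusted p 1.48e-07). The rescaling factors of W/F libraries were 0.855 to 0.907 on chow and 1.14 to 1.32 on the MASH diet, so rescaling makes the W/F value of Abcg5 lower. Abcg8 fell in both, with changes of -0.83 in W/F and -1.19 in F/F and differences of -2.34 ± 0.39 and -2.70 ± 0.39. Abcg1 in contrast rose more in W/F and F/F, by 3.92 and 2.86 against 1.06 (differences 2.86 ± 0.33 and 1.80 ± 0.33). Srebf1 rose less in W/F than in W/W, with a difference of -1.23 ± 0.31 (adjusted p 0.00122). The F/F difference of -0.85 ± 0.31 (adjusted p 0.0235) was not called without F/F chow replicate 1 (-0.76) or without W/W MASH replicate 2 (-0.76) or 4 (-0.62). Cfd, which rose most among the genes named in W/W, averaged 4.93 ± 4.99 TPM in W/F chow mice (SD, n = 4) and 1.21 ± 0.54 TPM in W/F MASH mice (SD, n = 4). F/F mice had 2.55 ± 0.54 TPM on chow and 2.26 ± 3.04 TPM on the MASH diet (SD, n = 4 each). Its response differed from that of W/W by -6.94 ± 0.80 and -6.32 ± 0.80 (adjusted p 5.14e-08 and 8.64e-07). Fabp5 fell in W/W and rose by 3.46 in W/F and 2.17 in F/F. G0s2 rose by 2.54 in W/W and was at -0.91 and 0.94 in W/F and F/F, uncalled in both as deposited (difference in W/F -3.45 ± 0.60, adjusted p 2.29e-05). Cyp8b1, not called in W/W, fell in both, with changes of -4.26 in W/F and -4.60 in F/F (differences -4.05 ± 0.44 and -4.40 ± 0.44).

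Matrix and macrophage genes, with no rise called as deposited in W/W, rose in both mutant genotypes, 28 and 25 of 29 matrix genes by their own diet contrasts, where 52.4% and 46.5% of all genes rose. The response of collagen and matrix genes was higher than in W/W for 28 of 29 in W/F (28 after rescaling) and 24 of 29 in F/F (21 after rescaling, with 1 lower), where 49.5% and 41.5% of all genes were higher (21% and 14.5% after rescaling). For the 12 lipid-associated macrophage markers it was 12 in W/F and 11 in F/F, and 11 in each after rescaling. On the MASH diet Gpnmb reached 435 ± 136 TPM in W/F mice (SD, n = 4) and 519 ± 59.2 TPM in F/F mice (SD, n = 4), against 1.18 ± 1.25 TPM in W/W mice (SD, n = 4), with differences in response of 7.72 ± 0.75 and 3.53 ± 0.75. Its F/F chow level was already 34.8 ± 9.80 TPM (SD, n = 4). Col1a1 responses differed by 4.47 ± 0.56 and 2.5 ± 0.56, Ccl2 responses by 4.80 ± 0.79 and 3.31 ± 0.79 and Trem2 responses by 4.83 ± 0.38 and 2.69 ± 0.38. Trem2 was under 1 TPM in every W/W mouse compared, so the added 1 TPM flattens its W/W change, and its response differences include this. With voom on recovered counts, the F/F differences of Trem2 and Gpnmb were 1.81 and 3.08, with adjusted p 0.0942 and 0.0523.

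**Figure D4:**
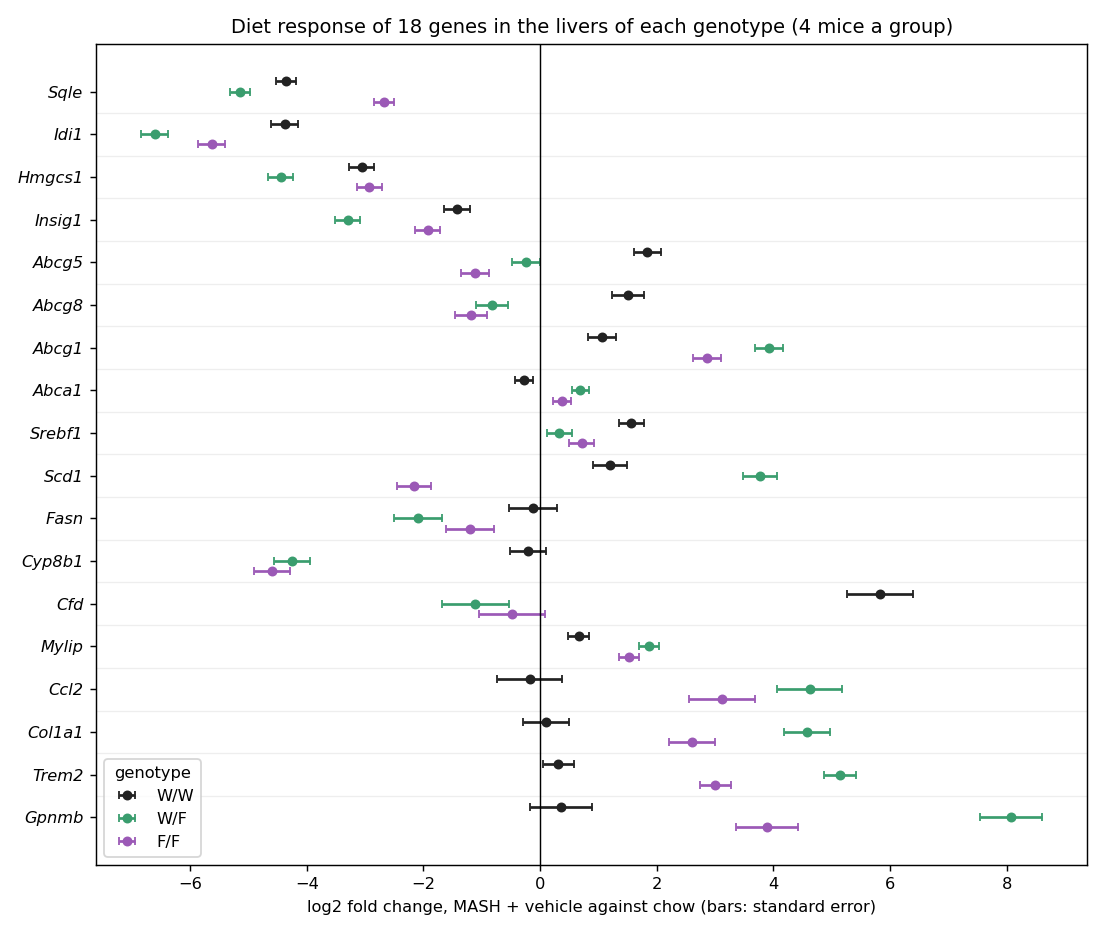
Log2 fold change of MASH diet over chow (x axis; bars, standard error) for 18 genes in W/W, W/F and F/F livers, 4 mice a group. Sterol synthesis genes lie left of 0 in all 3 genotypes, Cfd lies at 5.83 in W/W and left of 0 in the others, and Gpnmb, Trem2, Col1a1 and Ccl2 lie near 0 in W/W and between 2.60 and 8.08 in W/F and F/F.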

How the data were processed

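PolyA RNA of the livers of 36 male mice was sequenced, 4 mice in each of 9 groups of genotype and treatment, grouped here by the sample labels. The authors deposited 1 table of TPM for 49315 genes, in which each library sums to 1000000, and no counts were used for the main results. Per the submitters' processing notes, Trimmomatic 0.36, STAR 2.5.2b and featureCounts of Subread 1.5.2 were used with GRCm38/mm10; the strand setting is not given in the sources used here. GENCODE M21, of the same build, gave positions and exon lengths for 49056 genes.

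Genes with 1 TPM or more in 4 or more of the 36 samples were kept (16638), and tests ran on log2(TPM + 1). A model with 1 mean per group over all 36 libraries was fitted with limma 3.58.1 (R 4.3.3), with variances moderated along the mean, two-sided tests and Benjamini-Hochberg adjustment over all genes of a contrast. The labels number 4 samples a group and name no litters or batches, so p-values measure only the spread between these samples. On simulated data for the W/W diet contrast over 16638 genes, 87% of 100 genes changed 2-fold (log2 change of 1) and 99% of 100 changed by a log2 value of 2 were called, with 12 false calls of 198. The changed genes had a chow mean of at least 5 TPM, and the noise was independent and normal with each gene's own spread. Changes in lower genes, mice that stand apart and shifts of scale were not simulated, so these rates do not cover them. Depth was recovered from genes of 0.02 to 0.4 TPM and their exon lengths. Of genes under 20 reads, 93.1% to 94.0% in the 8 W/W libraries then lay within 0.1 of a whole read, where chance gives 20%. These reads were tested with voom as an alternative. Depths cover counting error only.

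Named genes were the 12 largest rises and 12 largest falls that were called, at 5 TPM or more in the higher group and without overlap, a selection of up to 6 called and 3 uncalled members of each list, and 27 fixed genes. All cholesterol synthesis enzymes could be named. A few genes of these lists, among them 3 of the fixed genes, are counted in the totals but not reported singly here. Named after their values were seen, outside these rules, were Adipoq, Lep, Plin1, Retn, Plin5, Ehhadh, Ppara, Cyp7b1, Nr0b2, Lgals3, Saa1, Saa2, Scap, Scarb1 and the overlapping gene Fads1. The mice compared, the 24 process and 13 marker lists and the fixed genes were chosen with earlier results of these data known. Shared sequence is the percent of a gene's 50-base exon words that also occur in another M21 gene. Rescaling used median-of-ratios factors over 14786 genes. Alternatives were a pseudocount of 0.1, a filter of 5 TPM, no filter, rescaled TPM, a replicate block, array weights, fitting the compared libraries alone and leaving out each library. Voom and the joint omission of chow replicate 2 and MASH replicate 1 were added after the data were seen.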

Additional observations from a re-analysis of the deposited data

Results flagged for a closer look

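Within the groups of 4 W/W mice, 28 of 230 sets of values examined had 1 mouse far from the other 3 by Dixon's test, where chance gives about 1 in 20. Chow replicate 2 was the high mouse for the sterol genes Idi1 (124 TPM), Lss (35.0 TPM) and Msmo1 (127 TPM) and for Fabp5 (122 TPM), and the low mouse for G0s2 (33.1 TPM) and Trem2 (0.107 TPM). Chow replicate 3 was high for Saa1 (2290 TPM), Saa2 (1800 TPM) and Gm15998 (26.8 TPM) and low for Mylip (3.53 TPM) and Ahr (18.5 TPM). Chow replicate 4 was high for Insig2 (180 TPM) and Gata4 (11.2 TPM). Chow replicate 1 was low for Insig1 (310 TPM) and high for Fabp1 (13400 TPM) and for Adipoq, at 0.124 TPM. MASH replicate 4 was high for Gpnmb (3.05 TPM), Col1a1 (8.44 TPM), Igkc (63.1 TPM), Gm22935 (17.0 TPM) and Gm24196 (0.893 TPM) and low for Pck1 (590 TPM). MASH replicate 3 was low for Mvk (3.88 TPM) and Dhcr7 (5.44 TPM) and high for Nr0b2 (111 TPM). MASH replicate 2 was high for Cyp51 (23.2 TPM), and MASH replicate 1 low for Nr5a2 (13.4 TPM) and for Adipoq, listed at 0.

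The diet response of 24 fixed genes was compared with that of W/W in both other genotypes, and 37 of the 48 differences had an adjusted p under 0.05 in limma. In W/F the response was lower than in W/W for Sqle (-0.79), Idi1 (-2.22), Hmgcs1 (-1.39), Insig1 (-1.88), Abcg5 (-2.08), Abcg8 (-2.34), Srebf1 (-1.23), Fasn (-1.98), Cyp8b1 (-4.05) and Cfd (-6.94). It was higher in W/F for Nr1h2 (0.72), Abca1 (0.97), Abcg1 (2.86), Scd1 (2.57), Mylip (1.21), Ccl2 (4.80), Col1a1 (4.47), Trem2 (4.83) and Gpnmb (7.72). In F/F it was lower for Idi1 (-1.25), Abcg5 (-2.96), Abcg8 (-2.70), Srebf1 (-0.85), Scd1 (-3.36), Cyp8b1 (-4.40), Cfd (-6.32) and Alb (-1.17). It was higher in F/F for Sqle (1.68), Srebf2 (0.67), Nr1h2 (0.56), Abca1 (0.64), Abcg1 (1.80), Mylip (0.86), Ccl2 (3.31), Col1a1 (2.5), Trem2 (2.69) and Gpnmb (3.53). After rescaling, the differences of Nr1h2 and Abca1 in W/F (0.11 and 0.35) and of Srebf2, Nr1h2, Abca1 and Mylip in F/F (0.22, 0.09, 0.17 and 0.39) were no longer called.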

How the results depend on the processing

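Of 88 called changes of named genes in W/W, 55 kept their direction and call under every alternative and 33 did not. No called change reversed. Of 25 uncalled, 16 kept theirs. The reversals were all of uncalled genes: Nr1h2 was 0.04 with rescaled TPM, and Fasn was 0.01 with rescaled TPM and ran from -0.52 to 0.56 as single mice were left out. Col1a1 ran from -0.27 to 0.29 as single mice were left out. Rescaled TPM gave 1161 higher genes in W/W and 4458 differences between F/F and W/W responses. The 8 libraries fitted alone gave 1015 calls, 218 higher and 797 lower. Without chow replicate 2 and MASH replicate 1 there were 531, 145 higher and 386 lower. As single mice were left out, calls ran from 1091 to 2128, higher genes from 220 to 426 and lower genes from 785 to 1768, with the lowest totals without MASH replicate 1 (1091) and chow replicate 2 (1266). The cause of these shifts was not tested. Under the other alternatives the counts of differing responses stayed within 1.5 times those given. Replicate numbers were not taken as pairs, since the chow mice were an independent cohort. The deviations of same-numbered mice correlated at most 0.0503, and those of other pairs ran from -0.0715 to 0.0674. Such correlations cannot by themselves show whether mice were paired. The fit with a replicate block gave 2317 calls. Precision is limited at low levels, as for Trem2 on 4 to 41 reads.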
